A study of Homo sapiens with 6 samples.

Results

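Interferon-stimulated genes are the genes that a cell switches on after it senses foreign nucleic acid or binds secreted interferon. Interferon receptors activate the JAK kinases and STAT transcription factors, which with the factor IRF9 bind a promoter element called the ISRE (interferon-stimulated response element). The proteins made then block viral RNA, virus entry and virus assembly, and raise the display of peptides on HLA class I molecules. The set described here takes the gene symbols that begin with IFI, IFIT, IFITM, OAS, GBP, HERC, IRF or STAT and a digit, or with HLA-, plus 18 named genes of the interferon response and of antigen presentation. The rule found 54 genes among the 14884 genes with 1 symbol in the platform annotation, each read through its brightest probe set. They came from 68 probe sets.

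The series compared 3 arrays of U-87 MG cells exposed to electromagnetic fields with 3 arrays of unexposed U-87 MG cells. U-87 MG is an established human glioblastoma line, so all arrays come from 1 line and no other glioma line or normal cell is represented. Exposed dishes stayed for 54 h, from 24 h after seeding, in a culture box inside a Faraday chamber, under fields aimed at 4 molecules (HSP70, CHI3L1, miR-381 and mutated alpha-kinase 2). Unexposed dishes stayed in a box outside the chamber, so field and box cannot be told apart. The titles, which give the groups, call each array a biological replicate, while the description of the exposed samples also contains the word control.

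The values are log2 expression values, with array medians of 3.96 to 3.99 and correlations between arrays of 0.982 to 0.988. Of the glioblastoma line markers, 8 of 10 were measured and averaged 8.94 to 9.03 in exposed and 9.01 to 9.07 in unexposed arrays. Fibronectin FN1, at 11.9 in exposed against 12.1 in unexposed cells, and vimentin VIM were among the bright ones. Of the leukocyte markers, 6 of 15 were measured and averaged 5.62 to 5.68 in exposed and 5.40 to 5.55 in unexposed arrays. CD14 and CD163 lay below the array medians in both groups, whereas CD68, a lysosomal protein not confined to leukocytes, averaged 12.3 in exposed against 12.2 in unexposed cells. CSF1R (5.77 in exposed against 5.57 in unexposed cells), NKG7 (5.17 against 5.27) and TYROBP (4.75 against 4.52) also lay above the array medians. The 4 measured of 6 endothelial markers averaged 3.94 to 4.03 in exposed and 3.73 to 3.98 in unexposed arrays. The leukocyte average was thus higher in every exposed array than in any unexposed one. Of the markers on these lists 0 passed the threshold in limma and 3 of the glioblastoma line had an unadjusted p under 0.05, and their part in the results below was not tested.

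The measured genes covered little of antigen presentation. MX1, PARP9, PARP12, PARP14, the immunoproteasome subunits PSMB8 and PSMB9, and the peptide transporter subunits TAP1 and TAP2 were not analysed here, and neither was any protein-coding HLA gene or any of OAS1 to OAS3. The 1 symbol beginning with HLA- was HLA-F-AS1, a noncoding RNA antisense to HLA-F. The symbol prefixes also brought in 5 HERC2 pseudogenes, the pseudogene IFITM4P and 3 genes named after a binding partner of IRF2 (IRF2BP1, IRF2BP2 and IRF2BPL), which are not IRF factors. Antigen presentation was thus represented by B2M, the shared light chain of class I molecules, and by that antisense RNA.

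Of the 54 genes, 1 rose in exposed cells, 0 fell and 53 did not pass the threshold, an adjusted p of 0.05 from limma with Benjamini-Hochberg adjustment over all genes. The gene that rose was IFITM3, a membrane protein that blocks the fusion of viruses with endosomes. Of all 14884 genes tested, 3.06% passed in either direction and 1.40% rose, whereas among the members 1.85% did so by either count. An unadjusted p under 0.05 was reached by 19 of the 54 (13 higher and 6 lower), or 35.2%, against 18.9% of all genes. Exposed and unexposed values did not overlap for 22 of the 54 (40.7%), against 27.0% of all genes. In 14 of these the exposed values were the higher ones (25.9% of members, against 13.2% of all genes), and in 8 the lower ones (14.8%, against 13.8%). The median log2 change of the members, exposed minus unexposed, was 0.06, against 0.0029 over all genes, and 34 were positive and 20 negative. The members ranged from -0.61 for HERC3 to 1.00 for IFIT1. Mean levels of 9 members lay under the lowest array median, and their small values are near the dim end of the scale. Of all genes, 4159 lay under it. Among the 45 members and 10725 genes not under it, 44.4% against 33.0% did not overlap (28.9% against 15.5% higher, 15.6% against 17.5% lower). An unadjusted p under 0.05 was reached by 37.8% against 24.5% of these, and 2.22% against 4.25% passed. Without pseudogenes, IRF2BP genes and HLA-F-AS1, 29.5% of 44 members were higher and 11.4% lower without overlap.

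**Figure D1:**
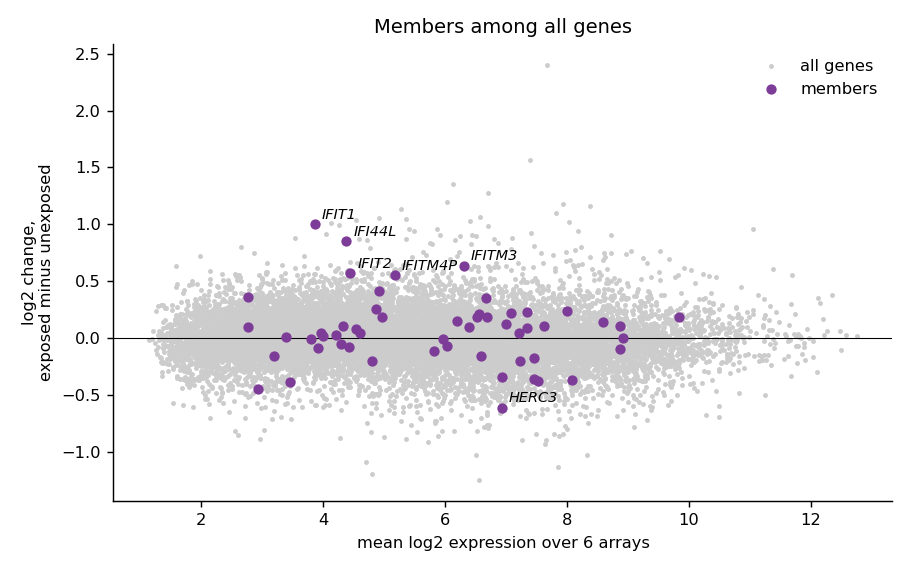
Log2 change (exposed minus unexposed, vertical axis) against mean log2 expression over 6 arrays (horizontal axis) for all 14884 genes in grey and the 54 members in purple. Most members lie within the cloud of all genes, IFIT1 at 1.00 and IFI44L at 0.85 lie near its upper edge, and members with changes above 0.5 in size are named.

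Promoter stretches that hold the letters of the ISRE are shown first, for the 7 members with such letters whose exposed values all lay above the unexposed ones, and for B2M, whose values overlapped. The stretches below come from RefSeq (build GRCh38.p14), lie within the 250 bases before the gene's start, are written on the gene's strand and run from 20 bases before the first match to 20 after the last, or to the start itself. Capitals mark matches to GAAANNGAAA or its reverse complement TTTCNNTTTC, which is the core of the ISRE as searched here on both strands.
IFIT1, chr10:89392487-89392549, plus strand: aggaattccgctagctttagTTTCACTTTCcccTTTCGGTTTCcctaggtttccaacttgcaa
IFIT3, chr10:89327821-89327904, plus strand: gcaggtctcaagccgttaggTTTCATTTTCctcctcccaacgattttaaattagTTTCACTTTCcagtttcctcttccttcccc
IFIT5, chr10:89414503-89414567, plus strand: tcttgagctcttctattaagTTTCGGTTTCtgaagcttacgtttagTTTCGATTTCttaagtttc
IFI44L, chr1:78620264-78620404, plus strand: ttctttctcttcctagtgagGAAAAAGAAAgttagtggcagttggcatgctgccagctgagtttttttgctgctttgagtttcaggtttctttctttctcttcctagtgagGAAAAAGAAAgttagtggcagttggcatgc
IFITM3, chr11:320866-320932, minus strand: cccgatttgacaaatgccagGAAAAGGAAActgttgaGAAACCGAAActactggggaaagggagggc
ISG15, chr1:1013364-1013419, plus strand: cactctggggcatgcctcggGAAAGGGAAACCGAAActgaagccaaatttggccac
HERC5, chr4:88456974-88457074, plus strand: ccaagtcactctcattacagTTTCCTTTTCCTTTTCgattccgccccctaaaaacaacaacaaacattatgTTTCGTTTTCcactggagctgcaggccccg
B2M, chr15:44711353-44711408, plus strand: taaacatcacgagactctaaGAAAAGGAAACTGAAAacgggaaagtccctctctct
Each of these stretches holds 2 matches except HERC5, with 3. In ISG15, B2M and HERC5 a pair of matches overlap, which shows as a longer run of capitals.

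A promoter window was found for 37 of the 54 members, and 13 of the 37 held the ISRE letters, whereas 3.02% of all 35116 RefSeq promoter windows did. Unlike the 37, the 35116 windows were not reduced to 1 per gene or to the measured genes. Counted in that way, 263 other measured genes held the letters and 10449 did not. In the 13, the median log2 change was 0.22, 10 were positive, and 7 had exposed values that were all above the unexposed ones (IFIT1, IFI44L, IFITM3, IFIT3, HERC5, IFIT5 and ISG15). In the 24 members whose windows lacked these letters, the median was 0.0078, 13 were positive, 2 had higher exposed values without overlap and 6 had lower ones. Among the 263 other measured genes with the letters the median was 0.012, with 17.5% higher without overlap, against 13.7% of the 10449 other genes without them. Of those 263 genes, 5 rose and 1 fell, so that 2.28% passed in either direction, against 3.34% of the other genes without the letters. The letters TTCNNNGAA, the core of the GAS element bound by STAT dimers (the same on both strands), stood in 6.57% of all windows and in 8 of the 37 member windows. Among the other measured genes 628 held the GAS letters and 10084 did not. The 8 members with the GAS letters had a median of 0.12, none had higher exposed values without overlap and 1 had lower ones. Of the 29 members without the GAS letters, 9 were higher and 5 lower without overlap. Among the other genes, 14.2% of the 628 and 13.7% of the 10084 were higher without overlap. Over all genes 13.2% were higher and 13.8% lower without overlap. These matches describe the windows alone, and no binding was measured.

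**Figure D2:**
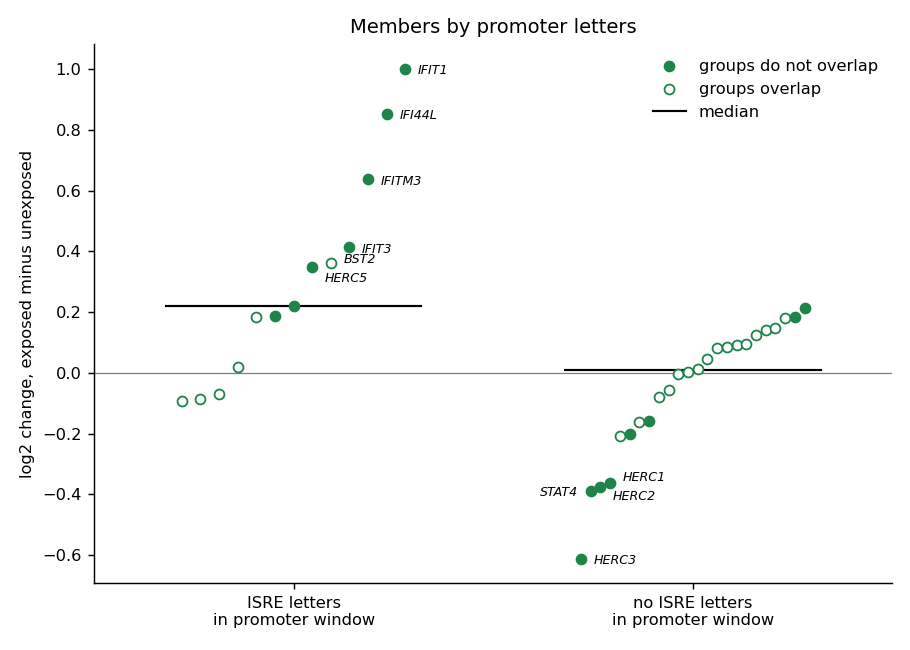
Log2 change (exposed minus unexposed) of the 37 members with a promoter window, split by whether the 250 bases before the start hold the ISRE letters. Filled points are members whose exposed and unexposed values do not overlap and lines are medians: 0.22 for the 13 with the letters and 0.0078 for the 24 without.

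The IFIT proteins bind viral RNA that lacks the marks of the cell's own messenger RNA, and 5 genes of the family were measured, all on chromosome 10. In limma 0 passed the threshold, though 4 had an unadjusted p under 0.05, against 18.9% of all genes. All 5 had positive log2 changes in every alternative run. In 4 of them the exposed values lay wholly above the unexposed ones, against 13.2% of all genes. The family median of 0.41 was the highest of any family with more than 1 member.

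IFIT1 was at 5.02, 4.21 and 3.88 in the exposed arrays, against 3.43, 3.28 and 3.39 in the unexposed arrays. The exposed values were spread widely (SD 0.59, against 0.07 in unexposed cells), with replicate 1 far above the other two. IFIT1 is 1 of the dim members, with a mean over the 6 arrays under the lowest array median. Its log2 change of 1.00 (SE 0.27, 2.00-fold) ranked 17 of 14884 by size upward, with a limma adjusted p of 0.0926. Without exposed replicate 1 the change was 0.68.

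IFIT2, whose protein forms complexes with the other IFIT proteins, was at 4.96, 4.67 and 4.57 in the exposed arrays, against 4.24, 4.08 and 4.17 in the unexposed arrays. IFIT3, a partner that stabilises IFIT1, was at 5.22, 5.05 and 5.13 in the exposed arrays, against 4.59, 4.65 and 4.91 in the unexposed arrays. Both genes were higher in every exposed array than in any unexposed one, with log2 changes of 0.57 (SE 0.14, limma adjusted p = 0.0707) and 0.41 (SE 0.12, limma adjusted p = 0.115). IFIT5 was at 7.10, 7.18 and 7.31 in the exposed arrays, against 7.07, 6.91 and 6.95 in the unexposed arrays, a gap between the groups of only 0.031. The interval of its log2 change of 0.22 ran from 0.02 to 0.42 (limma adjusted p = 0.210). IFIT1B, which is faint at 2.81 ± 0.10 in exposed arrays, against 2.72 ± 0.15 in unexposed ones (SD, n = 3), had overlapping values. In IFIT1, IFIT2 and IFIT3 the highest array was exposed replicate 1, whereas in IFIT5 it was exposed replicate 3.

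**Figure D3:**
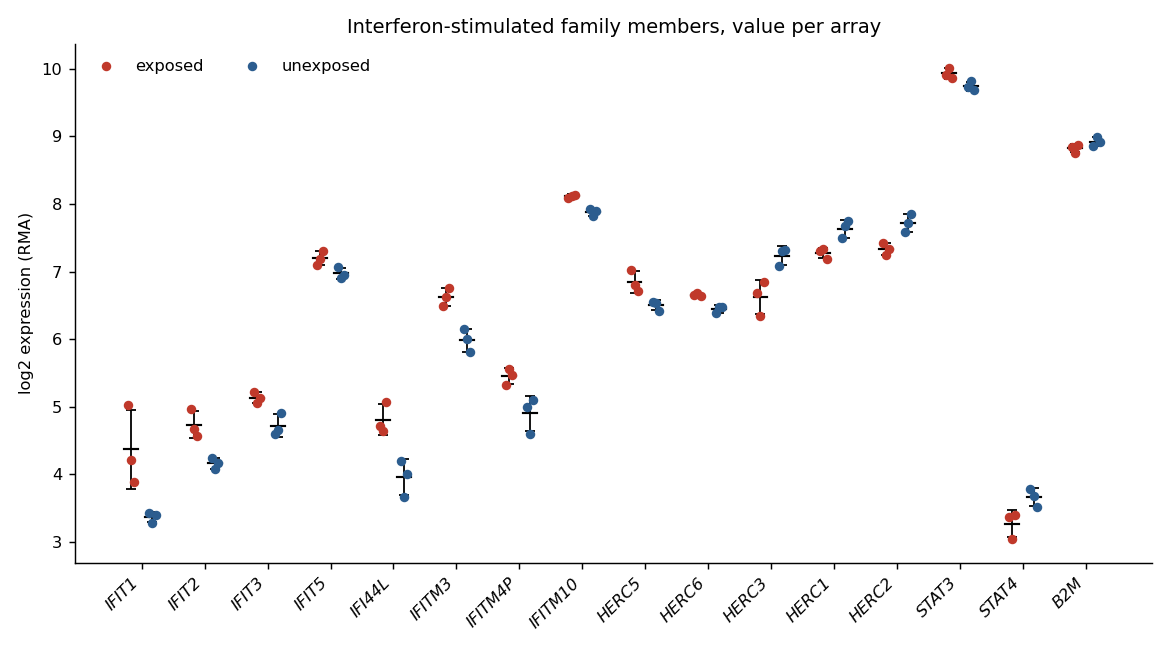
Log2 expression in each array for 16 members, exposed (red) left of unexposed (blue) for each gene, with points for the 3 arrays of a group and black lines for the mean ± SD. The exposed points of IFIT1 spread from 3.88 to 5.02 above 3 tightly grouped unexposed points, IFITM3 separates by 0.34, and HERC3, HERC1, HERC2 and STAT4 have all exposed points below the unexposed ones.

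The IFITM genes encode small membrane proteins that restrict virus entry. Among 6 measured members 1 rose and 5 did not pass, with 3 positive and 3 negative changes. Of the negative ones, IFITM1 and IFITM5 turned positive with arrays centred on ribosomal protein genes and without exposed replicate 1. IFITM3 was at 6.49, 6.63 and 6.76 in the exposed arrays, against 6.15, 6.0 and 5.81 in the unexposed arrays. The lowest exposed value exceeded the highest unexposed value by 0.34. The log2 change was 0.64 (SE 0.12, 1.55-fold, interval 0.37 to 0.90, limma adjusted p = 0.0348), and ranked 92 of all genes upward. The change itself stayed between 0.55 and 0.72 with any array left out, but the call was lost each time (limma adjusted p of 0.0553 to 0.129), as it was when p-values were adjusted over all probe sets (0.0570) and without a mean-variance trend (0.163).

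IFITM2, a close relative that acts mainly in endosomes, was at 7.28, 7.37 and 7.44 in the exposed arrays, against 7.70, 7.51 and 7.42 in the unexposed arrays. Its values overlapped and the interval of its change of -0.18 ran from -0.39 to 0.03 (limma adjusted p = 0.348). IFITM1, the family member of the cell surface, was dim in both groups (3.87 ± 0.19 in exposed arrays, against 3.95 ± 0.12 in unexposed ones, SD, n = 3) and its values overlapped. The genes IFITM1, IFITM2 and IFITM3 are similar in sequence, and so is the pseudogene IFITM4P, so the array may mix them and each signal is uncertain. IFITM4P was at 5.32, 5.56 and 5.47 in the exposed arrays, against 5.0, 4.6 and 5.10 in the unexposed arrays. Its change of 0.55 (SE 0.15, limma adjusted p = 0.0936) was matched by its 6 probe sets, which ranged from 0.51 to 0.55, though some of these share identical values. IFITM10, a more distant relative, was at 8.09, 8.12 and 8.14 in the exposed arrays, against 7.92, 7.82 and 7.90 in the unexposed arrays. Its groups did not overlap, and the change was 0.24 (SE 0.06, limma adjusted p = 0.0835). IFITM5, a bone protein, overlapped between groups.

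Of the 3 IFI genes, IFI44L stood apart and the others did not. IFI44L, a feedback regulator of the interferon response, was at 4.71, 4.64 and 5.07 in the exposed arrays, against 4.20, 3.67 and 4.0 in the unexposed arrays. The groups did not overlap, and the log2 change of 0.85 (SE 0.18, 1.81-fold) did not pass, with a limma adjusted p of 0.0510. Across the alternatives that adjusted p ran from 0.0118 to 0.163, and the gene passed in 5 of 15. Its neighbour IFI44, on the same chromosome 1, was at 5.83, 5.90 and 6.25 in the exposed arrays, against 6.15, 5.98 and 6.06 in the unexposed arrays. That paralog overlapped between groups, with a change of -0.07 (interval -0.36 to 0.22). IFI35 had a change of 0.09 (interval -0.09 to 0.26).

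Among the classical antiviral effectors the differences were small. ISG15, a ubiquitin-like protein that is joined to other proteins, was at 6.83, 6.77 and 6.75 in the exposed arrays, against 6.57, 6.63 and 6.59 in the unexposed arrays. Its values did not overlap, but the change of 0.19 (SE 0.07, 1.14-fold) did not pass (limma adjusted p = 0.205). USP18, the protease that removes ISG15 and dampens receptor signalling, was at 6.92, 7.54 and 7.25 in the exposed arrays, against 7.31, 7.27 and 6.99 in the unexposed arrays, with a change of 0.04 (interval -0.33 to 0.42). OASL, a relative of the oligoadenylate synthetases, was at 7.62, 7.68 and 7.74 in the exposed arrays, against 7.63, 7.53 and 7.57 in the unexposed arrays. Its lowest exposed value fell just inside the unexposed range, and its change was 0.10 (interval -0.05 to 0.26).

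MX2, a GTPase that restricts retroviruses, had a change of 0.11 with overlapping values. RSAD2 (viperin), which makes a chain-terminating nucleotide, was faint at 3.41 ± 0.19 in exposed arrays, against 3.39 ± 0.21 in unexposed ones (SD, n = 3), and the interval of its change of 0.01 ran from -0.39 to 0.41. BST2 (tetherin), which holds budding virus at the cell surface, was at 3.0, 2.79 and 3.05 in the exposed arrays, against 2.47, 2.84 and 2.45 in the unexposed arrays, also below the array medians. Its change of 0.36 (limma adjusted p = 0.295) overlapped through unexposed replicate 2. The helicases DDX60 (0.18) and DHX58 (0.05) and the exonuclease ISG20 (0.02) overlapped between groups as well. All 5 of these last-named genes outside the larger families, counting RSAD2 and BST2, had positive values as reported, and 0 passed (0 with an unadjusted p under 0.05). RSAD2 turned negative with arrays centred on their medians. With an array left out, RSAD2 was as low as -0.10 and ISG20 as low as -0.26.

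The guanylate-binding proteins are GTPases that are induced mostly by interferon gamma and attack the membranes of intracellular microbes. Only GBP3, GBP4 and GBP5 were measured, and GBP1 and GBP2 were not analysed here. Of these 3 measured genes, 0 had a positive change as reported. GBP4 turned positive with arrays centred on ribosomal protein genes and in some fits with an array left out, up to 0.30 without unexposed replicate 3. GBP5 was at 2.57, 3.14 and 2.42 in the exposed arrays, against 2.97, 3.24 and 3.27 in the unexposed arrays, a change of -0.45 (interval -0.95 to 0.04, limma adjusted p = 0.312). GBP3 was at 4.56, 4.87 and 4.66 in the exposed arrays, against 4.98, 5.02 and 4.71 in the unexposed arrays, a change of -0.21 (interval -0.52 to 0.11). The groups overlapped in each of the 3 genes, 0 had an unadjusted p under 0.05 in limma, and GBP4 and GBP5 were dim. GBP4, at -0.0054, had the widest interval of any member in the plot of changes by family (-0.65 to 0.64), so its direction cannot be read.

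The HERC symbols join genes of unlike regulation, and their changes went in both directions, with 0 past the threshold. Whether the directions follow the regulation was not tested. HERC5, the interferon-induced ligase that attaches ISG15, was at 7.03, 6.80 and 6.72 in the exposed arrays, against 6.55, 6.54 and 6.42 in the unexposed arrays. HERC6, its neighbour on chromosome 4 and the main ISG15 ligase of mice, was at 6.65, 6.68 and 6.64 in the exposed arrays, against 6.38, 6.48 and 6.48 in the unexposed arrays. Both lay higher in every exposed array, with changes of 0.35 (SE 0.10, limma adjusted p = 0.110) and 0.21 (SE 0.07, limma adjusted p = 0.166). HERC3, a further small HERC ligase on chromosome 4, was at 6.69, 6.34 and 6.84 in the exposed arrays, against 7.08, 7.31 and 7.32 in the unexposed arrays. It lay lower in every exposed array, with a change of -0.61 (SE 0.14, limma adjusted p = 0.0560), the lowest of all members.

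The giant ligases HERC1 and HERC2 were lower in every exposed array as well. HERC1 was at 7.30, 7.33 and 7.19 in the exposed arrays, against 7.49, 7.67 and 7.75 in the unexposed arrays, a change of -0.36 (SE 0.09, limma adjusted p = 0.0696). Its second probe set gave -0.33. HERC2, a ligase of the DNA damage response, was at 7.43, 7.25 and 7.34 in the exposed arrays, against 7.58, 7.72 and 7.85 in the unexposed arrays, a change of -0.38 (SE 0.09, limma adjusted p = 0.0675). Its pseudogenes HERC2P3 (-0.37) and HERC2P9 (-0.34) also lay lower without overlap, whereas HERC2P2 (-0.11), HERC2P10 (-0.0081) and HERC2P7 (0.02) overlapped. These copies are nearly identical to parts of HERC2, so the array may not separate them and they are not independent of it. HERC4 was even across all arrays, at 8.92 ± 0.03 in exposed arrays, against 8.92 ± 0.04 in unexposed ones (SD, n = 3). In all, 0 of 11 HERC symbols passed, 7 had an unadjusted p under 0.05, 2 were higher and 5 lower without overlap (3 of the 5 being HERC2 and copies of it), and the family median was -0.11. Over all genes 18.9% had an unadjusted p under 0.05, 13.2% were higher and 13.8% lower without overlap.

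**Figure D4:**
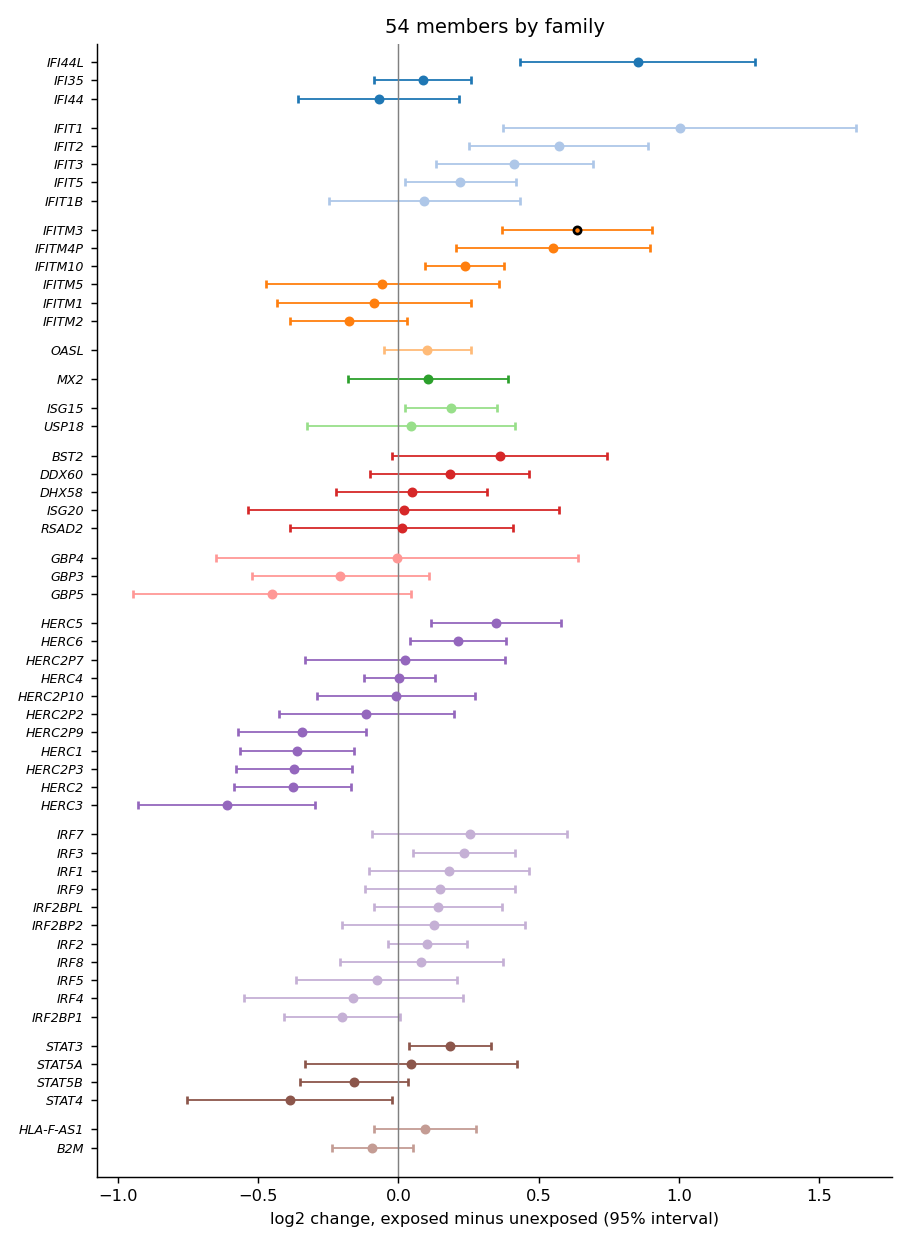
Log2 change (exposed minus unexposed) with its 95% interval from limma for all 54 members, grouped and coloured by family. The black-rimmed point is IFITM3, the 1 member past the threshold, and within the HERC group the intervals of HERC5 and HERC6 lie above 0 while those of HERC3, HERC2, HERC1, HERC2P3 and HERC2P9 lie below it.

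The transcription factors of the response differed little. Among 8 IRF factors and 3 IRF2BP genes 0 passed and 1 (IRF3) had an unadjusted p under 0.05. IRF3, which carries the signal from nucleic acid sensors to the interferon genes, was at 7.52, 7.53 and 7.36 in the exposed arrays, against 7.32, 7.17 and 7.22 in the unexposed arrays, a change of 0.23 (SE 0.08, limma adjusted p = 0.159). IRF2, a competitor of IRF1 on shared sites, was at 8.86, 9.0 and 8.88 in the exposed arrays, against 8.81, 8.84 and 8.79 in the unexposed arrays. Both lay higher without overlap, and the change of IRF2 was 0.10 (interval -0.04 to 0.24). IRF7, the amplifier of interferon alpha production and itself an interferon target, had a change of 0.25 (interval -0.09 to 0.60), and IRF9, the DNA-binding part of the STAT complex ISGF3, one of 0.15 (interval -0.12 to 0.42). Both overlapped, as did IRF1 (0.18), IRF8 (0.08), IRF5 (-0.08) and the lymphoid factor IRF4 (-0.16). IRF2BP1 was at 7.18, 6.99 and 7.23 in the exposed arrays, against 7.29, 7.43 and 7.28 in the unexposed arrays, a change of -0.20 (limma adjusted p = 0.276). It was the 1 IRF symbol that lay lower without overlap.

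Of the STAT genes 4 were measured, of which 0 passed and 2 had an unadjusted p under 0.05. STAT3, the main transducer of interleukin-6 signalling, was at 9.91, 10.02 and 9.87 in the exposed arrays, against 9.73, 9.82 and 9.69 in the unexposed arrays. STAT4, mainly a lymphoid gene and dim here, was at 3.37, 3.04 and 3.40 in the exposed arrays, against 3.78, 3.68 and 3.52 in the unexposed arrays. They lay apart in opposite directions, with changes of 0.18 (SE 0.06, limma adjusted p = 0.163) and -0.39 (SE 0.16, limma adjusted p = 0.234). STAT5B (-0.16) lay lower without overlap and STAT5A (0.04) overlapped.

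In antigen presentation B2M was at 8.84, 8.76 and 8.88 in the exposed arrays, against 8.86, 8.99 and 8.92 in the unexposed arrays. The groups overlapped, and the interval of the change of -0.09 ran from -0.24 to 0.05 (limma adjusted p = 0.488). Its second probe set gave 0.0048. HLA-F-AS1 had a change of 0.10 (interval -0.09 to 0.28), and its 6 probe sets, 3 of which share the same values, ranged from -0.07 to 0.11.

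Other genes of the pathway were counted from 8 lists with 143 entries, of which 74 genes outside the member rule were measured. No interferon gene was among them, as 0 of the 21 entries for the interferons themselves were analysed here. Of the 74, 12 rose, 2 fell and 60 did not pass, against 1.40% of all genes rising and 1.67% falling. The median log2 change was 0.11. Leaving out 1 array gave a count of 11 in place of 14 when it was exposed replicate 3, of 2 when it was unexposed replicate 1, and of 0 for each of the other arrays. With arrays centred on ribosomal protein genes the split was 8 higher and 0 lower. Several of these genes were already known to move in these arrays when the lists were drawn up. The counts here and for each list below are thus a description. Setting them beside the share of all genes does not test the lists.

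The enzymes that feed ISG15 to HERC5 lay higher beside it. UBA7, which activates ISG15, was at 7.22, 7.18 and 6.93 in the exposed arrays, against 6.14, 5.82 and 6.18 in the unexposed arrays. It rose by 1.06 (SE 0.13, limma adjusted p = 0.0265). UBE2L6, which hands ISG15 to the ligase, was at 7.09, 7.21 and 7.05 in the exposed arrays, against 6.89, 6.71 and 6.68 in the unexposed arrays, a change of 0.36 (limma adjusted p = 0.0709). TRIM25 was at 0.07. Thus 1 of the 3 measured conjugation partners rose, against 1.40% of all genes, while ISG15 and HERC5 did not pass. This list too was drawn up with earlier results known, so its count is a description.

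Of 14 measured genes of nucleic acid sensing, 3 rose, against 1.40% of all genes, and 11 did not pass, with a median of 0.08. As the list was drawn up with earlier results of these data known, this count is a description and not a test. The sensors TLR3 (1.03), IFIH1 (0.87) and RIGI (0.52) were the 3, whereas DHX58, the relative of IFIH1 and RIGI among the members, had a change of 0.05. CGAS, a DNA sensor that was very dim here, had the lowest value of the list at -0.19.

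Of 35 other interferon-stimulated genes, 6 rose, 1 fell and 28 did not pass, with a median of 0.14, and 17 did not overlap between groups (14 higher, 3 lower). Over all genes 1.40% rose, 1.67% fell, 13.2% were higher and 13.8% lower without overlap. XAF1, a promoter of cell death, was at 6.19, 6.53 and 5.89 in the exposed arrays, against 5.42, 5.33 and 5.37 in the unexposed arrays, a rise of 0.83. CCL2, a monocyte chemokine, rose by 0.70 (SE 0.13) and SAMD9L, an antiviral translation inhibitor, by 0.62 (SE 0.11). The ubiquitin ligases TRIM21 (0.53), DTX3L (0.52) and TRIM22 (0.52) rose too. SLFN5, a Schlafen family gene induced by interferon alpha, was at 9.51, 9.49 and 9.49 in the exposed arrays, against 9.83, 10.04 and 9.91 in the unexposed arrays, and it fell by 0.43 (SE 0.07, limma adjusted p = 0.0298). The limma adjusted p of these 7 genes lay between 0.0298 and 0.0415.

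Of 7 measured receptor and JAK signalling genes, SOCS3 fell and 6 did not pass, with a median of 0.18, whereas 1.67% of all genes fell. SOCS3, a feedback inhibitor induced by STAT3, was at 8.82, 8.91 and 8.97 in the exposed arrays, against 9.34, 9.23 and 9.32 in the unexposed arrays, a change of -0.39 (SE 0.06, limma adjusted p = 0.0312). SOCS1, the inhibitor that acts most on interferon receptors, was at 5.59, 5.90 and 6.09 in the exposed arrays, against 5.53, 5.47 and 5.29 in the unexposed arrays. That feedback gene lay higher without overlap, at 0.43 (SE 0.14), but did not pass (limma adjusted p = 0.147).

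Of 6 measured class I peptide loading partners 2 rose, against 1.40% of all genes. These were the lectin chaperone CALR (0.30, SE 0.05) and ERAP2 (0.34, SE 0.07), an aminopeptidase that trims peptides to length for HLA class I. ERAP2 was at 7.57, 7.50 and 7.43 in the exposed arrays, against 7.19, 7.11 and 7.17 in the unexposed arrays (limma adjusted p = 0.0444). The loading factor TAPBP (0.29, limma adjusted p = 0.0758) lay higher without overlap, and TAPBPL (-0.18) overlapped. CALR is also a chaperone of general protein folding. Of 5 class II partners 0 passed, with RFXANK at -0.24 and LGMN at 0.0064 as their lowest and highest values, and 1 had an unadjusted p under 0.05. Of 5 NF-kappaB partners 0 passed, with RELA at -0.12 and NFKB1 at 0.25, and 1 had an unadjusted p under 0.05. The medians of the class I, class II and NF-kappaB lists were 0.22, -0.05 and 0.05.

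**Figure D5:**
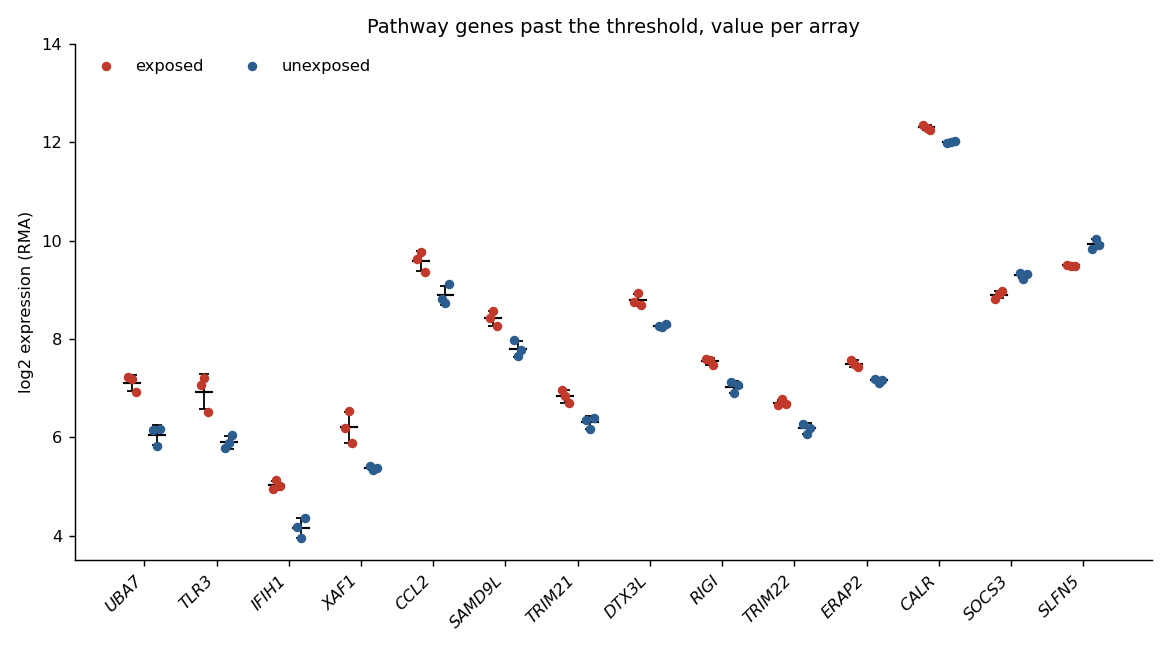
Log2 expression in each array for the 14 pathway genes outside the member rule that passed the threshold, exposed (red) left of unexposed (blue), with points for the 3 arrays of a group and black lines for the mean ± SD. The groups do not overlap for any of the 14, with UBA7 (1.06) and TLR3 (1.03) the widest apart and SOCS3 and SLFN5 lower in exposed cells.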

How the data were processed

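The authors deposited log2 values, 1 for each probe set on each array, made with RMA in Affymetrix Expression Console 3.0 and Transcriptome Analysis Console 3.0, per the submitters' processing notes. RMA makes array distributions alike, and its other settings are not stated in these sources. Of 53617 probe sets, 16098 carried 1 gene symbol, and 14884 genes were represented by their brightest probe set. The other 37519 carried no symbol or more than 1, and were not assigned to a gene here. Differences were computed in R 4.3.3 with limma 3.58.1 on all probe sets (lmFit and eBayes using a mean-variance trend, with two-sided tests, no covariates and no filter). Benjamini-Hochberg adjustment ran over the 14884 genes, the threshold was 0.05, and the fit was tested on simulated data. Errors are SE of the log2 change, SD of a group, or 95% intervals. The number of arrays limits the precision.

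The members and the gene lists were chosen with earlier results of these data known. Named genes were the members past the threshold, the 12 largest changes, the highest, lowest and brightest of each family, and in each list the genes past the threshold and the extremes. Members outside this rule (such as HERC6, IFITM1, IFITM5, IRF1, IRF3, IRF4, IRF5, IRF8, IRF9, STAT5A, STAT5B, DHX58, ISG20 and the other HERC2 and IRF2BP copies) and UBE2L6 and TAPBP were named after their values were seen. Promoters came from RefSeq and the ISRE and GAS letters were searched in the 250 bases before each start. Same-numbered arrays did not deviate together (correlations of -0.0164, -0.0253 and 0.0096), so the replicate numbers were not used as pairs. Alternatives were a replicate block, other scalings, no trend, a filter on dim probe sets, other probe set rules and leaving out each array. Figures were drawn with matplotlib 3.10.9.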

Additional observations from a re-analysis of the deposited data

How the results depend on the processing

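The number of members past the threshold, 1 as reported, was 0 with any single array left out (range 0 to 0), 0 without a mean-variance trend and 0 when adjusted over all probe sets. With the replicate number as a block it was 0 as well, and 1 of the 6 arrays correlated best with its own number. It was 2 with quantile normalization again and likewise 2 after centring on ribosomal protein genes (IFI44L and IFITM3 in both), which moved the median of all genes to 0.0921. Restricting the fit to probe sets brighter than the median gave 6 (2 higher, 4 lower), averaging each gene's probe sets gave 11 (6 higher, 5 lower) and fitting only the representative probe sets gave 12 (7 higher, 5 lower). The share of all genes past the threshold moved too, to 7.03%, 7.88% and 8.12% in those fits, against 3.06% as reported. It was 0 of all genes with the replicate block, without a trend and for 4 of the 6 arrays left out, and 1.09% when adjusted over all probe sets. Members with an unadjusted p under 0.05 numbered 14 to 19 with an array left out and 15 with the replicate block. The 14 pathway list genes became 0 with the replicate block, 0 without a trend, 8 with arrays centred on ribosomal protein genes, 7 when adjusted over all probe sets, and 0 to 11 with an array left out. Values near 0 changed sign: GBP4 was 0.0839, IFI44 0.0182, HERC2P10 0.0811, IFITM1 0.0021, IFITM5 0.0316 and IRF5 0.0111 with arrays centred on ribosomal protein genes, HERC2P10 was 0.0333 as a mean of probe sets, and HERC4 was -0.0085, RSAD2 -4e-05 and LGMN -0.0057 with arrays centred on their medians. With an array left out, GBP4 lay between -0.18 and 0.30, HERC4 between -0.0201 and 0.0205, IFI44 between -0.20 and 0.0091, USP18 between -0.11 and 0.20, RSAD2 between -0.10 and 0.11, LGMN between -0.0565 and 0.11, HERC2P10 between -0.12 and 0.0627, HERC2P7 between -0.0903 and 0.16, IFITM1 between -0.15 and 0.0248, IFITM5 between -0.21 and 0.12, IRF8 between -0.0040 and 0.14, ISG20 between -0.26 and 0.18 and STAT5A between -0.11 and 0.15. No other member, and no other named gene of the pathway lists, changed sign in any alternative. The causes of these differences were not tested.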
